A study of Homo sapiens with 12 samples.

Results

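The replication-dependent histone genes are the clustered genes whose symbols begin with HIST1, HIST2 or HIST3 and name histone H1, H2A, H2B, H3 or H4. They were taken as all rows of the count table with such a symbol, in which letters and no digit follow the histone type. A total of at least 10 counts over the 12 libraries was also required. Of the 58735 rows, 70 had a matching symbol and 58 reached the minimum, among the 25873 genes that did so. The 58 genes comprise 4 H1, 10 H2A, 21 H2B, 11 H3 and 12 H4 genes, of which 44 lie in the HIST1 cluster on chromosome 6, 13 in HIST2 and 1 in HIST3. Just inside the minimum were HIST1H3A with 13 counts and HIST1H4K with 18, and just outside it were HIST1H3E and HIST1H4J with 9 counts each and HIST3H2BA with 4. A further 9 rows had no count at all. Among them, 4 lie over more than 80% of their exon bases within exons of another gene, as HIST1H2AK does within HIST1H2BN on the opposite strand, and the part of this overlap in their counts was not tested.

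RNA-sequencing was performed on THP1 cells, an established human monocytic leukemia line with a wild-type genotype per the labels, in 4 groups of 3 libraries. THP1 cells were kept in EC medium for 24 h without ECs (mono-culture) or in a transwell insert with 1 µm pores above human umbilical vein ECs. The ECs had been given DMSO (control ECs), etoposide, a topoisomerase inhibitor used to make them senescent (senECs), or etoposide followed by EGCG, a green tea catechin (EGCG-treated senECs). The THP1 cells of all 12 cultures, mono-culture included, were then taken out and given 100 ng/ml LPS, a bacterial cell wall component, for 2 h. Co-cultures held 400000 THP1 cells and 500000 ECs per well. The replicates are numbered 1, 2 and 3 in mono-culture and with control ECs and 1, 2 and 5 in both senEC groups, and the labels do not say whether they came from separate cultures, so that the p-values measure only the spread between these libraries.

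Replication-dependent histone genes supply the core histones and linker histone that package newly copied DNA, and cells transcribe them mainly in S phase. Their mRNAs are unusual among animal mRNAs because they end in a conserved stem-loop instead of a poly(A) tail. SLBP binds this stem-loop and directs the processing, translation and decay of the mRNA, while NPAT activates the histone gene clusters at the start of S phase. Some histone genes can also be read through to a downstream poly(A) signal, which is known in cells that have left the cycle, and methods that select poly(A) tails then see these longer forms.

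The stem-loop is shown first because it defines this class of mRNA. The pattern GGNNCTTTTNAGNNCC, searched on the transcript strand only, was found in GENCODE 29 (GRCh38) transcript models of 27 of the 58 genes. The models of the other 31 genes, all 4 H1 genes among them, hold no match, and models from 312 bases upward may end before it. Capitals mark the match, with 6 bases on either side:
HIST1H2AE: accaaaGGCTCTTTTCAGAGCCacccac
HIST1H2BF: cccaaaGGCTCTTTTAAGAGCCacccac
HIST2H2BC: tccaaaGGCTCTTTTCAGGGCCatttaa
HIST1H4E: atcaaaGGCCCTTTTCAGGGCCgcccac
HIST1H4I: taaaaaGGCCCTTTTTAGGGCCcctaag
The form of HIST1H2AE occurred in 14 genes of types H2A, H2B and H3, and that of HIST1H2BF, with a different loop, in 4. The forms that open with GGCCC were found only in the 6 H4 genes with a match. In 18 of the 27 genes the model ran on for more than 500 bases after the stem-loop, and 21 of the 58 genes had a poly(A) signal in the last 60 bases of a model.

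Library totals lay between 15439836 and 22092600 counts. Levels are given in CPM, counts per 1000000 library counts after TMM scaling with factors from 0.912 to 1.04. A count of 0 allows a level of up to 0.132 to 0.191 CPM, depending on the library (3 counts, counting error only). The 58 genes together took between 700 and 4103 counts per library, with a median of 778.5. The THP1 label was checked against 12 monocyte markers, all of which were measured and whose summed level lay between 2362 and 3320 CPM in the 12 libraries. The 2362 CPM, in control EC replicate 2, was the lowest sum, and the other 11 libraries lay between 2515 and 3320 CPM. The 17 endothelial markers summed to between 22.6 and 35.5 CPM, of which EGFL7 alone gave 17.8 to 30.4 CPM, and 2 of them had no count. Control EC replicate 2, at 31.1 CPM, had rank 2 of the 12 libraries in this endothelial sum. Of the 17 markers, ANGPT2 was at 3.12 CPM there against a median of 0.548 CPM in the other 11 libraries. It was chosen after its value was seen, and no other listed endothelial marker was in the top 50 of the ranking described below. The cause of this library's place in either sum, and of its ANGPT2 level, was not tested.

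One library stands apart in the histone genes. Control EC replicate 2 had a summed histone level of 180 CPM, against 38.6 to 57.3 CPM (median 45.1) in the other 11 libraries. It was the highest of the 12 libraries for 50 of the 58 genes, or 86.2%, whereas it was the highest for 12.2% of all genes tested. No other library was the highest for more than 2 of the 58 genes. On the scale of log2(CPM + 0.5), the median ratio of this library to the median of the other 11 was 1.70 for the 58 genes and 0.00 for all genes tested. Ranked by that ratio among the 14036 genes with at least 30 counts in it, 28 of the top 50 were histone genes, which made up 0.299% of the genes ranked. The filter and the ratio use the same library. Genes such as HIST1H4D, with 39 counts in it and a median of 0.0516 CPM elsewhere, passed only through it. The ranking is therefore a description and adds no support. Because of the histone levels in control EC replicate 2, the edgeR comparisons that include control ECs are given with and without it. DESeq2 was run with it only.

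**Figure D1:**
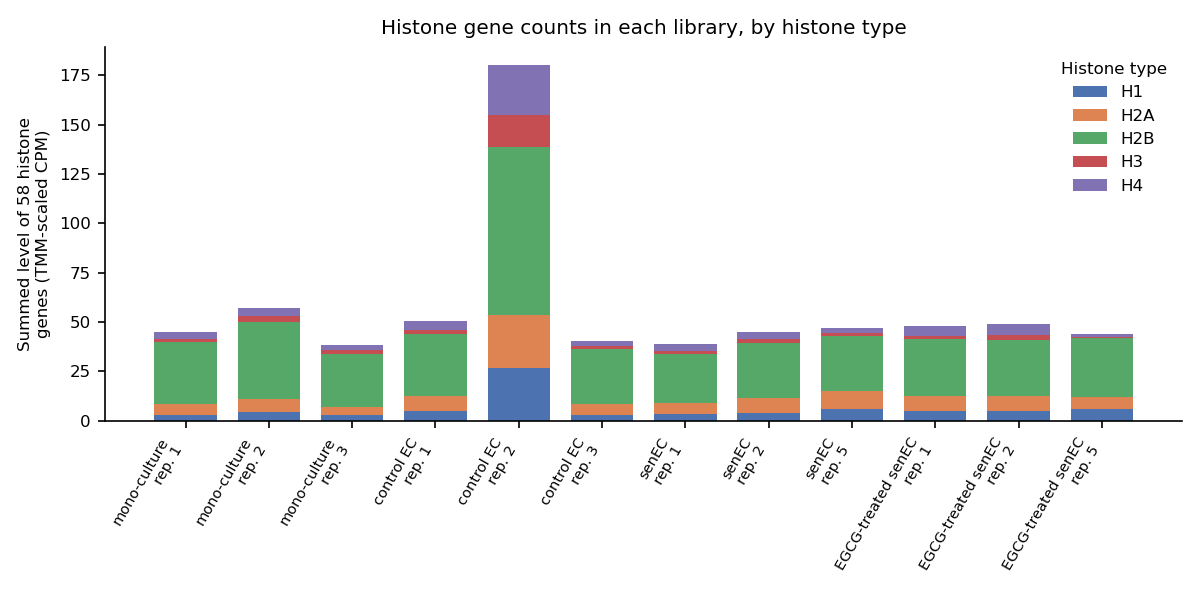
Stacked bars give the summed TMM-scaled CPM of the 58 histone genes (vertical axis) in each of the 12 libraries (horizontal axis), divided by histone type. Control EC replicate 2 reaches 180 CPM, and the other 11 libraries lie between 38.6 and 57.3 CPM.

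Several ribosomal and other non-coding RNAs were also high in this library, and these were chosen after their values were seen. MT-RNR1, a mitochondrial ribosomal RNA, was at 3547 CPM there and at 296 to 804 CPM in the other 11 libraries. RNA5-8SN2, a 5.8S ribosomal RNA gene, was at 11.7 CPM against 0.592 to 2.09 CPM, and MALAT1, a nuclear RNA with a non-adenylated end, at 1300 CPM against 203 to 461 CPM. RN7SL2, the RNA of the signal recognition particle, was at 632 CPM there, at 486 CPM in control EC replicate 1 and at 178 to 286 CPM in the remaining 10 libraries. Of 18 listed RNAs without a poly(A) tail, 4 had at least 10 counts, none was called in any comparison, and their sum of 639 CPM in that library, against 180 to 489 CPM in the others, was mostly RN7SL2. The part of these transcripts, of RNA quality and of library preparation in the histone values was not tested. In bulk RNA, a larger share of cells in S phase and more histone RNA per cell cannot be told apart.

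Outside control EC replicate 2, the histone genes were weakly represented and a few genes carried most of the reads. Over those 11 libraries the mean length-scaled level, in FPKM over the GENCODE 29 exon length, exceeded 1 for 6 of the 58 genes, and the median over the genes was 0.375 FPKM. The 6 were HIST1H2BK at 11.0, HIST2H2AC at 9.91, HIST1H1C at 4.68, HIST1H2BH at 3.46, HIST2H2BE at 1.27 and HIST1H4I at 1.16 FPKM. The 5 genes with the most counts held 53.1% of the histone counts of the 11 libraries, and the same 5 genes held 21.8% of those of control EC replicate 2. At least 1 of the 11 libraries had no count for 31 of the genes, while control EC replicate 2 had counts for all 58.

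The shares of the histone types also differed in that library. H2B took 47.1% of its histone counts, against 57.5% to 69.7% in the other 11 libraries. H3 took 9.02% against 1.58% to 5.26%, and H4 took 14.2% against 3.29% to 11.6%. For H1, 14.8% stood against 6.08% to 13.9%, and for H2A the 14.9% lay within the 11.3% to 19.8% of the other libraries.

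H1 is the linker histone, which binds the DNA between nucleosomes, and its 4 genes were all highest in control EC replicate 2. Their summed level was 26.7 CPM there and 2.74 to 6.11 CPM in the other 11 libraries. HIST1H1C (chr6:26055787-26056428, minus strand), the most abundant of them per length, was at 1.62, 2.69 and 2.59 CPM in mono-culture, at 2.83, 9.53 and 2.39 CPM with control ECs, at 2.27, 2.83 and 5.20 CPM with senECs and at 2.99, 3.18 and 4.50 CPM with EGCG-treated senECs, in order of the replicate numbers. Apart from the 1 library, the 3 libraries with EGCG-treated senECs were above those of mono-culture and control ECs and overlapped those with senECs, and both libraries numbered 5 were above the other 9. HIST1H1B (chr6:27866849-27867529, minus strand) was at 0.373, 0.754 and 0 CPM in mono-culture, at 0.864, 9.18 and 0.222 CPM with control ECs, at 0.413, 0.694 and 0.604 CPM with senECs and at 0.731, 0.699 and 0.107 CPM with EGCG-treated senECs. No library but control EC replicate 2 reached 1 CPM of HIST1H1B, where it was 15.2 times the median of the others. HIST1H1E and HIST1H1D were 8.51 and 13.4 times that median.

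The 10 H2A genes, which encode a core histone that pairs with H2B in the nucleosome, fell into 1 abundant and 9 weak genes. HIST2H2AC (chr1:149886975-149887364, plus strand) was at 2.86, 2.96 and 2.31 CPM in mono-culture, at 2.78, 5.45 and 3.72 CPM with control ECs, at 2.84, 4.45 and 7.07 CPM with senECs and at 4.87, 4.57 and 4.07 CPM with EGCG-treated senECs. All 3 libraries with EGCG-treated senECs were above the 3 of mono-culture, whereas 1 senEC library lay within the mono-culture range. Of the 10 genes, only HIST2H2AC had its highest level in a library other than control EC replicate 2. Its fitted log2 difference from mono-culture was 0.81 ± 0.31 (SE) with senECs and 0.73 ± 0.31 with EGCG-treated senECs, with adjusted p of 0.336 and 0.533, so that neither passed the test.

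HIST1H2AE (chr6:26216975-26217483, plus strand), whose stem-loop is printed above, stood apart in the 1 library instead. It was at 0.187, 0.269 and 0.0551 CPM in mono-culture, at 0.576, 4.26 and 0.389 CPM with control ECs, at 0.361, 0.289 and 0.302 CPM with senECs and at 0.244, 0.318 and 0.429 CPM with EGCG-treated senECs. All 3 control EC libraries were above the 3 of mono-culture, and 1 of them was far above all others. Its log2 fold change between control ECs and mono-culture was 3.32 ± 0.81 with an adjusted p of 0.173 in edgeR, and DESeq2 gave an adjusted p of 0.0331. Without control EC replicate 2, the log2 fold change was 1.48 ± 0.78 with an adjusted p of 0.992. The other 8 H2A genes had means from 0.0986 to 0.735 CPM over the 11 libraries, and control EC replicate 2 was 3.95 to 19.6 times their median. HIST1H2AI and HIST1H2AJ share stretches of at least 150 bases, so that their reads may be split or lost between them.

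The 21 H2B genes held most of the histone counts. HIST1H2BH (chr6:26251651-26253710, plus strand), with the most counts, was at 7.34, 7.00 and 6.94 CPM in mono-culture, at 8.01, 8.66 and 6.89 CPM with control ECs, at 5.26, 5.49 and 7.98 CPM with senECs and at 7.43, 7.18 and 8.79 CPM with EGCG-treated senECs. The groups overlapped, control EC replicate 2 was not the highest library, and it stood at 1.21 times the median of the others. HIST1H2BK (chr6:27146418-27146798, minus strand), the most abundant per length, was at 3.98, 7.00 and 4.02 CPM in mono-culture, at 3.41, 9.45 and 4.17 CPM with control ECs, at 3.41, 5.03 and 4.47 CPM with senECs and at 4.57, 3.75 and 2.41 CPM with EGCG-treated senECs. HIST2H2BE (chr1:149884459-149886652, minus strand) was at 1.62, 3.71 and 2.70 CPM in mono-culture, at 2.45, 9.45 and 2.67 CPM with control ECs, at 2.01, 2.60 and 2.24 CPM with senECs and at 2.74, 2.80 and 5.04 CPM with EGCG-treated senECs. Both genes peaked in control EC replicate 2. The groups otherwise overlapped for HIST1H2BK, whereas the 3 libraries of HIST2H2BE with EGCG-treated senECs were above the 3 with senECs and the remaining 2 with control ECs.

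HIST2H2BC (chr1:149844498-149850937, minus strand), annotated as a transcribed pseudogene with a model of 6440 bases, had a pattern of its own. It was at 6.40, 9.64 and 7.55 CPM in mono-culture, at 6.48, 6.28 and 7.34 CPM with control ECs, at 4.54, 5.73 and 5.38 CPM with senECs and at 4.26, 4.89 and 5.84 CPM with EGCG-treated senECs. All 6 libraries of the senEC groups were below all 6 of the other groups, and control EC replicate 2 did not stand out. Its log2 fold change against mono-culture was -0.60 ± 0.20 with senECs and -0.65 ± 0.20 with EGCG-treated senECs. The adjusted p values of 0.279 and 0.297 missed the threshold, as did those of DESeq2, 0.116 and 0.121. The model overlaps that of HIST2H2BD on the opposite strand over 30.9% of its exon bases, and the sources used here do not say whether the counting used strand, so that reads of the 2 genes cannot be told apart there.

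Among the remaining H2B genes, HIST2H2BF had the highest CPM in control EC replicate 2, with 14.1 CPM there against 0.214 to 2.45 CPM in the other 11 libraries. HIST1H2BB was at 2.24 CPM there, and its median of 0.0622 CPM over the others was under the limit of a 0. At the other end, HIST2H2BB stood at 0.395 CPM there, below the median of 0.480 CPM of the others, and 67.9% of its exon bases are shared with other genes. The 4 H2B pseudogenes together were at 10.4 CPM in that library and at 7.02 to 12.4 CPM in the others, while the 54 protein-coding histone genes were at 170 CPM against 28.5 to 44.9 CPM.

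**Figure D2:**
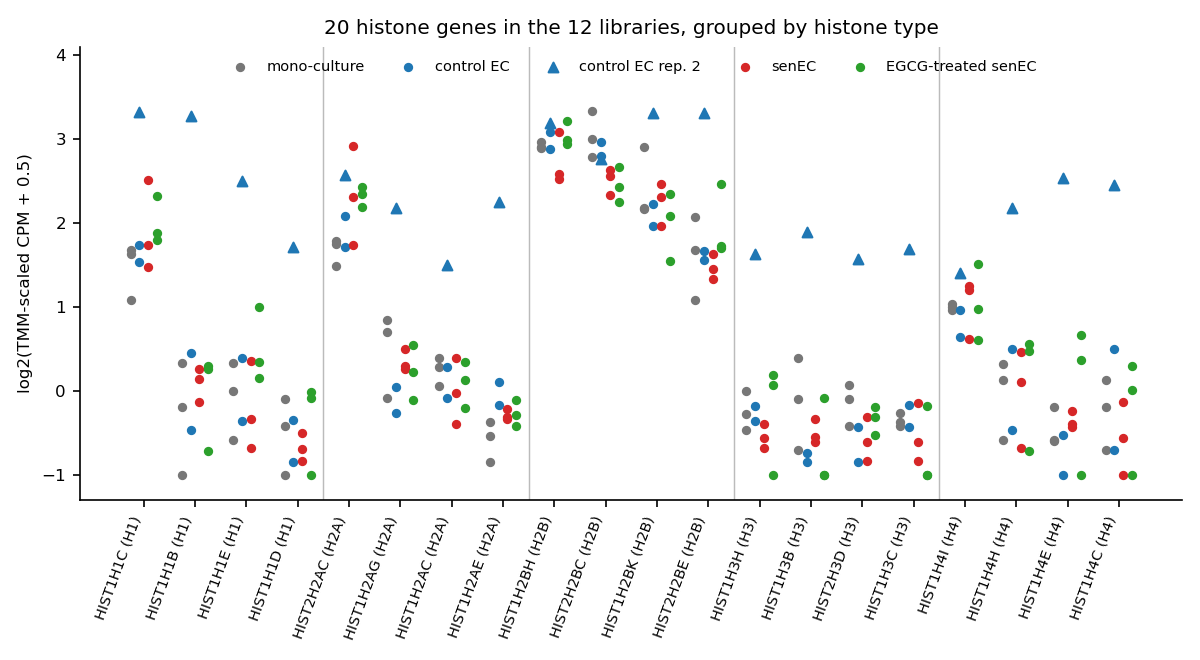
Each point is 1 library, with the level as log2(TMM-scaled CPM + 0.5) on the vertical axis and 20 histone genes, grouped by type, on the horizontal axis, coloured by group. The triangle of control EC replicate 2 stands above all other libraries for HIST1H1B (9.18 CPM), HIST1H2AE (4.26 CPM) and HIST1H4E (5.32 CPM) but not for HIST2H2AC, HIST1H2BH, HIST2H2BC and HIST1H4I.

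H3 and H4 form the central tetramer of the nucleosome, and their genes were the weakest. The 11 H3 genes summed to 16.3 CPM in control EC replicate 2 and to 0.696 to 3.01 CPM in the other 11 libraries, of which the first is 9.61 times the median of the others. By summed CPM this was the largest ratio of the 5 types. By the median of the genes' log2 ratios (CPM + 0.5), H3 had the lowest value, 1.30, and H1 the highest, 2.28. The added 0.5 lowers the ratios of weak genes most. Without it, among genes with a median above 0 in the others, the median ratio was 9.61 for H3. It was 11.0 for H1, 10.9 for H2A, 6.64 for H4 and 5.32 for H2B. HIST1H3B (chr6:26031650-26032060, minus strand) was at 0.435, 0.807 and 0.110 CPM in mono-culture, at 0.0960, 3.21 and 0.0556 CPM with control ECs, at 0.155, 0.289 and 0.181 CPM with senECs and at 0, 0.445 and 0 CPM with EGCG-treated senECs. Only control EC replicate 2 was outside the range of mono-culture on the high side. HIST1H3H, HIST2H3D and HIST1H3C were at 2.59, 2.46 and 2.72 CPM in that library, and none of them exceeded 0.635 CPM elsewhere. Of the 11 H3 genes, only HIST1H3J had a higher level elsewhere, and 44.6% of its exon bases are shared with HIST1H2AM. HIST2H3A and HIST2H3C are copies that share all 150-base windows of their models with other genes, so their values are uncertain.

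The 12 H4 genes summed to 25.5 CPM in control EC replicate 2 and to 1.45 to 5.65 CPM in the others. HIST1H4I (chr6:27138588-27139881, plus strand), the most abundant per length, was at 1.49, 1.45 and 1.54 CPM in mono-culture, at 1.06, 2.15 and 1.44 CPM with control ECs, at 1.03, 1.79 and 1.87 CPM with senECs and at 1.46, 2.35 and 1.02 CPM with EGCG-treated senECs. The 4 groups overlapped, and control EC replicate 2 was not the highest. HIST1H4E (chr6:26204552-26206038, plus strand) was at 0.373, 0.161 and 0.165 CPM in mono-culture, at 0.192, 5.32 and 0 CPM with control ECs, at 0.258, 0.347 and 0.242 CPM with senECs and at 0.792, 1.08 and 0 CPM with EGCG-treated senECs. HIST1H4C and HIST1H4H were at 4.96 and 4.04 CPM in control EC replicate 2, against at most 0.912 and 0.975 CPM elsewhere. Within each of the 4 groups, the library numbered 3 or 5 had the lowest H4 sum, at 2.59, 2.45, 2.60 and 1.45 CPM in mono-culture, control EC, senEC and EGCG-treated senEC cultures. It had the lowest sum in 3 of 4 groups for H2A and for the 58 genes together, in 2 of 4 for H2B and for H3, and in 1 of 4 for H1. HIST1H4B had no count in the 3 mono-culture libraries. Against the limit of 3 counts per library that these allow, the control EC mean of 0.994 CPM was at least 5.81-fold higher, and it rests on 2.68 CPM in replicate 2. HIST2H4A and HIST2H4B share all their 150-base windows, and so does HIST1H4K with HIST1H4J.

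Genes with short and with long annotated transcripts differed in their level in control EC replicate 2, with many exceptions and with no test. The 37 genes with models of at most 1000 bases summed to 102 CPM there, 5.06 times the median of the other 11 libraries. The 21 genes with longer models summed to 78.4 CPM, 2.92 times that median. HIST2H2BC, HIST2H2BD and HIST1H2BH, with models of 6440, 3612 and 2060 bases, stood at 1.08, 1.40 and 1.21 times. Long models were no bar to a large ratio, as HIST1H4E with 1487 bases stood at 5.32 CPM against a median of 0.242 CPM and HIST2H2BF with 1954 bases at 8.93 times its median. HIST2H2AC, with a model of only 390 bases, stood at 1.46 times.

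**Figure D3:**
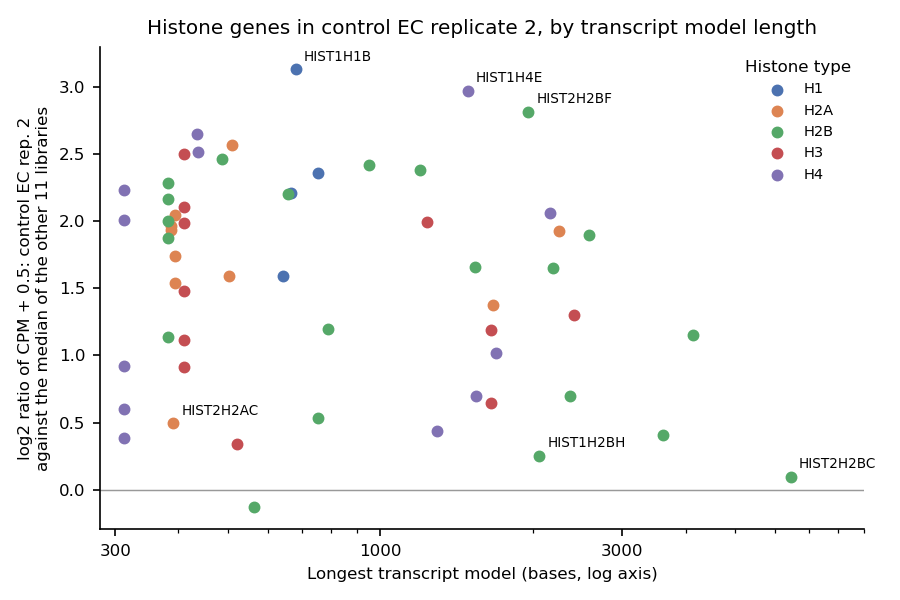
Points are the 58 histone genes, coloured by type, with the length of the longest transcript model in bases (log axis) against the log2 ratio of control EC replicate 2 to the median of the other 11 libraries (CPM + 0.5). Ratios run from -0.13 to 3.13, with HIST1H1B highest and the long H2B models of HIST2H2BC and HIST1H2BH near 0.

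The comparison of control ECs with mono-culture asks what the endothelial secretome changes in stimulated THP1 cells. The histone genes summed to 46.9 ± 9.51 CPM (SD, n = 3) in mono-culture and to 90.4 ± 78.0 CPM with control ECs, or 45.5 ± 7.25 CPM (n = 2) without replicate 2. In edgeR, 56 of the 58 genes had a positive log2 fold change and the median was 1.63, against 0.01 for all genes tested. None of the 58 passed edgeR's adjusted threshold of 0.05, which 0.143% of all genes did. DESeq2 called 1, HIST1H2AE, and the share of all genes that it called is not given here. This edgeR model has no block for the replicate number, by which the labels do not pair the libraries. With such a block edgeR called histone genes in this and the other comparisons with control ECs. Their counts are given in the section on processing, without a share of all genes beside them. Without the block, 20 histone genes had an unadjusted p under 0.05, all of them higher. Of all genes, 6.52% reached it in either direction and 3.17% in that direction. Without control EC replicate 2 the median was -0.02, 28 genes were above 0 and 29 below, none was called, and 3 had an unadjusted p under 0.05, as 4.79% of all genes had. With genes at 0 in a whole group set to their limit, the medians were 1.60 and 0.00. The 5 types had medians from 1.13 (H2B) to 2.17 (H1) with all libraries and from -0.04 (H3) to 0.21 (H1) without the 1 library.

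Between senECs and control ECs, which addresses the effect of endothelial senescence, the same library moved the values in the other direction. The senEC sum was 43.7 ± 4.23 CPM. With all libraries the median log2 fold change was -1.77, 54 of 58 genes were below 0, and 0 were called by edgeR or by DESeq2. Of all genes, edgeR called 0.0%. At an unadjusted p under 0.05 there were 27 histone genes, all lower, against 6.61% of all genes in either direction and 3.75% lower. Without control EC replicate 2 the median was -0.14, with 26 genes above 0 and 32 below, and 0 genes reached an unadjusted p under 0.05, against 3.47% of all genes. HIST1H1B had the most negative fold change among genes with a mean of at least 1 CPM, a limit that it met only through control EC replicate 2 (mean 1.22 CPM with it and 0.496 CPM without). As a description, it went from -2.60 ± 0.93 (adjusted p = 0.728) to 0.0276 ± 0.91 (adjusted p = 1.00) on the log2 scale. The largest positive fold change among those genes was that of HIST2H2AC, 0.25 ± 0.29 with an adjusted p of 0.871, and 0.54 ± 0.32 with an adjusted p of 0.989 without that library.

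EGCG-treated senECs against senECs, the comparison that addresses the EGCG treatment of the senescent cells, has that library in neither group. The library still enters the shared fit of all 12 libraries. The sum with EGCG-treated senECs was 47.0 ± 2.65 CPM against 43.7 ± 4.23 CPM with senECs, and the libraries overlapped. They ran from 44.0 to 48.9 CPM with EGCG-treated senECs and from 38.9 to 47.0 CPM with senECs. Fold changes were above 0 for 29 genes and below 0 for 29, with a median of -0.00. No histone gene was called by edgeR or DESeq2, and edgeR called 0.0% of all genes. HIST1H4K, at 0 in all 3 libraries with EGCG-treated senECs and at 7 counts in all with senECs, was the 1 gene with an unadjusted p under 0.05, which 2.22% of all genes had, and both groups were under the limit of a 0. Among genes with a mean of at least 1 CPM, the largest positive fold change was that of HIST2H2BE, 0.63 ± 0.44, and the most negative that of HIST1H2BK, -0.27 ± 0.35, each with an adjusted p of 1.00. Without control EC replicate 2 in the model, 2 histone genes and 2.25% of all genes had an unadjusted p under 0.05.

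**Figure D4:**
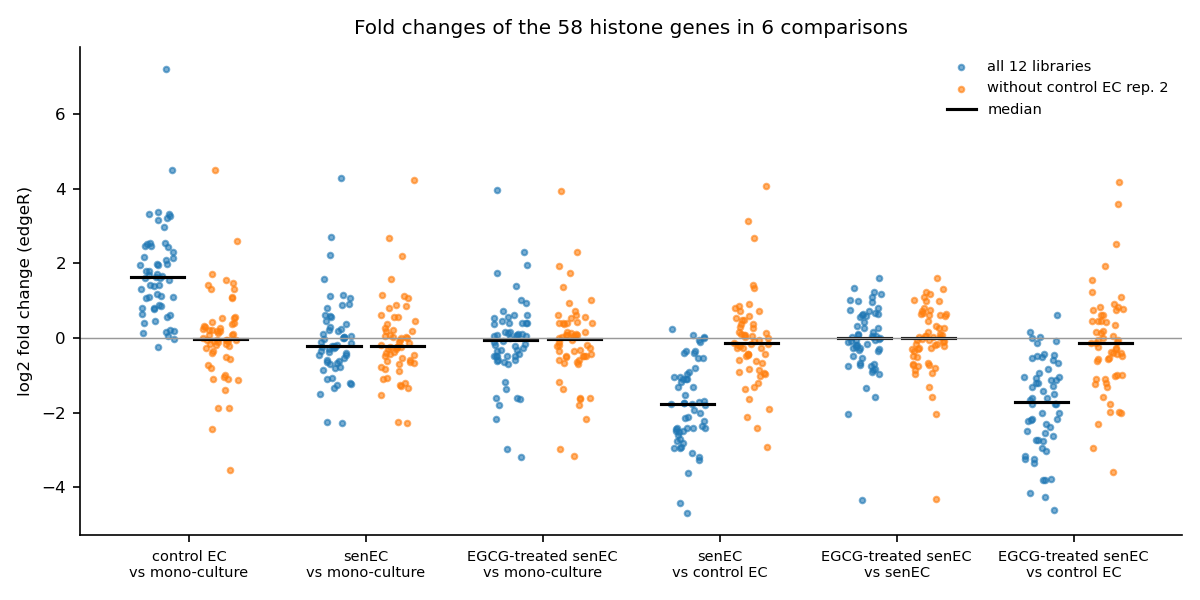
Points are the edgeR log2 fold changes (vertical axis) of the 58 histone genes in 6 comparisons (horizontal axis), fitted with all 12 libraries and without control EC replicate 2, and black lines are medians. The medians of 1.63, -1.77 and -1.71 in the comparisons with control ECs become -0.02, -0.14 and -0.14 without that library, while the other 3 medians stay between -0.21 and 0.00.

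EGCG-treated senECs against control ECs had a median of -1.71 with 55 of 58 genes below 0, and -0.14 with 33 below 0 without that library. None was called by either tool, and edgeR called 0.0% of all genes. In edgeR, 22 histone genes had an unadjusted p under 0.05, all lower, against 4.55% of all genes and 2.83% lower. Without the library there were 2, against 2.73% of all genes. These comparisons and that of senECs with control ECs share their control libraries.

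Against mono-culture, senECs gave a median of -0.20 with 23 genes above 0 and 35 below, and EGCG-treated senECs a median of -0.04 with 28 above and 30 below. No histone gene was called by edgeR or DESeq2 in either, while 0.309% and 0.213% of all genes were called by edgeR. At an unadjusted p under 0.05 there were 2 histone genes with senECs, HIST2H2AC higher and HIST2H2BC lower, and 11.0% of all genes. With EGCG-treated senECs there were 3, these and HIST3H2BB, and 8.58% of all genes. In the model without control EC replicate 2 the counts were 3 and 3, against 10.6% and 8.37% of all genes. Each of these shares of the histone genes lies below that of all genes, but rests on 2 or 3 genes. Over the 11 libraries other than control EC replicate 2, 49 of the 58 genes had a median under 1 CPM. The lower shares are therefore not read as a result about the histone genes.

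Many H2A and H2B genes lie head to head, and the promoters of 3 of them are shown. They hold a motif absent from the H1, H3 and H4 promoters that were matched among the 58 genes. HIST1H3D, an H3 gene outside the 58, does have it, but its promoter is given at the same bases as that of the H2A gene HIST1H2AD. With a gap of at most 1000 bases between opposite starts there were 11 pairs of histone genes, in 8 of which both genes were among the 58, with gaps from 218 to 356 bases. One of the 8 joins an H3 gene, HIST1H3J, to HIST1H2BO, and the others are of H2A and H2B. In 6 of the 8 pairs both partners were highest in control EC replicate 2, where 86.2% of the 58 genes were highest, so that the count says nothing particular of the pairs. HIST1H2BG and HIST1H2AE, a pair with a gap of 282 bases, were at 3.56 and 4.26 CPM there and averaged 0.770 and 0.311 CPM in the other 11 libraries. HIST2H2BE and HIST2H2AC, 322 bases apart, were at 9.45 and 5.45 CPM there and averaged 2.78 and 3.87 CPM. On the length scale, HIST2H2AC averaged 9.91 FPKM and HIST2H2BE 1.27 FPKM over those 11 libraries, and HIST1H2BK 11.0 FPKM and its partner HIST1H2AH 0.654 FPKM.

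RefSeq promoters (GRCh38.p14) were matched for 49 of the 58 genes by symbol. The 250 bases before the start of 3 H2B genes of such pairs follow, with the octamer ATTTGCAT, a motif bound by POU-family factors, in capitals:
HIST1H2BG: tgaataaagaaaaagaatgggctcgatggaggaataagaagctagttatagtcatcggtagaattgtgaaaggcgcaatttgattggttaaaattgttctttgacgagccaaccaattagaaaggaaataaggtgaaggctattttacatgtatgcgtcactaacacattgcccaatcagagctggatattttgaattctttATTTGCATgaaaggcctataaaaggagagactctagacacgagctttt
HIST1H2BK: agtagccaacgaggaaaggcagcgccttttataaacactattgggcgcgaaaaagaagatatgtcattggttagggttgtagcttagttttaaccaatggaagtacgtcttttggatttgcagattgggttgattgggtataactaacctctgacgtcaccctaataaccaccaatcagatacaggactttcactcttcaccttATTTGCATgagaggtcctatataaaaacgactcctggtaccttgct
HIST2H2BE: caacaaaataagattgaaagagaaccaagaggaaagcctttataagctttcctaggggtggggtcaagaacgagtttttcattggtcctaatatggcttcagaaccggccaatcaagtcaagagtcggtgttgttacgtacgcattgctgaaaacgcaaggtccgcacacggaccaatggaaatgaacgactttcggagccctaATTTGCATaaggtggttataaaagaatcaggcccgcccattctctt
They lie at chr6:26216689-26216938, chr6:27146859-27147108 and chr1:149886683-149886932, all on the minus strand. The first of them overlaps the GENCODE 29 exon of HIST1H2BG, which ends at 26216692, by its last bases, and the other 2 lie upstream of the exon. The octamer begins 48, 46 and 46 bases before the start.

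From 250 bases before to 50 after each start, searched on both strands, the octamer was found in 8 of 9 H2A and 13 of 17 H2B promoters and in none of the 4 H1, 9 H3 and 10 H4 promoters. It was found in 1.77% of the 35116 RefSeq promoters. In 8 of the 13 H2B promoters it began 60 to 40 bases before the start, and in the H2A promoters 208 to 118 bases before. In 5 of the 6 pairs of the 58 genes with both promoters given, the octamer of the H2A and the H2B gene was the same bases read from opposite sides. CCAAT was found in all 39 H1, H2A, H2B and H3 promoters and in 3 of 10 H4 promoters, against 34.6% of all, and TATAA in 75% to 100% of each type, against 20.4% of all. A match is a description of letters and not a measured binding site. The 21 genes with an octamer summed to 90.3 CPM in control EC replicate 2, 3.59 times the median of the others, and the 28 with a promoter but no octamer to 70.3 CPM, 6.58 times that median. Gene by gene the order was the other way, with a median log2 ratio (CPM + 0.5) of 1.93 with an octamer and 1.59 without. The added 0.5 lowers the ratios of weak genes most, and the weak H3 and H4 genes are all among those without an octamer. Neither difference was tested.

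Genes of the surrounding pathways lay within the range of the other libraries in control EC replicate 2 when summed by list. SLBP was at 141 CPM there and ran from 128 to 168 CPM with a median of 147 CPM over the 12 libraries, and NPAT was at 34.9 CPM, the highest value, in a range from 22.1 to 34.9 CPM. The 21 genes of histone transcription and 3′ end processing, SLBP and NPAT included, summed to 1710.0 CPM in that library against 1666 to 1802 CPM in the other 11. The 7 genes of histone mRNA decay, among them UPF1 and ERI1, summed to 690 CPM against 627 to 694 CPM. Histone chaperones, 18 genes that carry histones to DNA, summed to 2867 CPM against 2827 to 3234 CPM.

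Proliferation genes were abundant in all 12 libraries. The 38 genes of DNA replication and S phase, led by MCM4, MCM3 and MCM7 of the replicative helicase, summed to 5385 CPM in control EC replicate 2 against 4787 to 5781 CPM in the others. The 24 genes of G2 and M phase, led by CDC20 and TOP2A, summed to 4197 CPM against 3956 to 5034 CPM. The 12 genes listed as replication-independent histones summed to 2699 CPM against 2687 to 3508 CPM. Among all the genes of these 6 lists, 0 passed edgeR's adjusted threshold in any of the 6 comparisons. Their medians ranged from -0.11 to 0.15 on the log2 scale, against -0.02 to 0.01 for all genes tested.

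**Figure D5:**
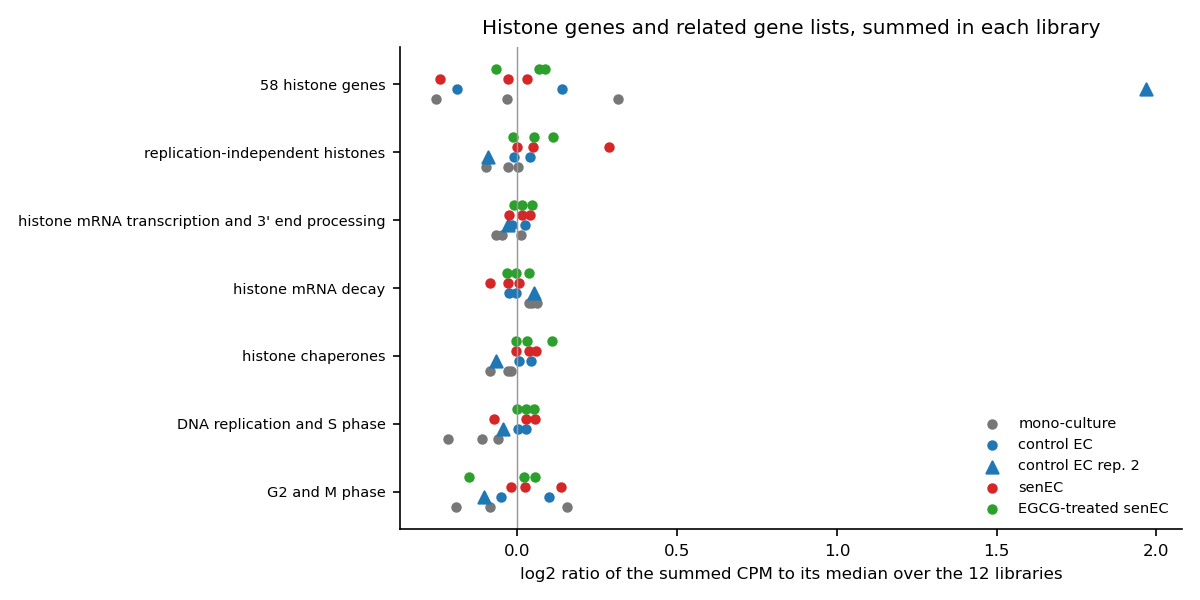
Points are the 12 libraries, coloured by group, with the log2 ratio of a list's summed CPM to its median over the libraries on the horizontal axis, for the 58 histone genes and 6 related lists. The triangle of control EC replicate 2 lies near 2 for the histone genes (180 CPM) and within the range of the other libraries for the 6 lists.

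A further 5 histone genes have symbols of another form and stood outside the selection. HIST3H2A, with the most counts of them, was at 3.08 CPM in control EC replicate 2 and at 2.09 to 4.77 CPM over all 12 libraries. HIST2H2AA3 and HIST2H2AA4, near-identical copies, were at 0.967 and 0.571 CPM there, their highest values, and HIST4H4 was at 0.0879 CPM in a range from 0.0604 to 0.622 CPM.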

How the data were processed

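RNA-sequencing counts of THP1 cells were analysed in 12 libraries, grouped by the sample labels. The authors deposited whole-number read counts per gene symbol, not normalized, made from cleaned reads that the paper's methods and the processing notes say were aligned with HISAT2 (hg38); the counting program, its annotation, its use of strand and how mRNA was selected are not given in the sources used here. Symbols of the 58735 rows were matched to GENCODE 29. A further 4 columns match no described sample and were not used. The histone genes, the gene lists and the tests were chosen with earlier results of these data known. edgeR 4.0.16 (quasi-likelihood, TMM, Benjamini-Hochberg, R 4.3.3) was fitted to all 12 libraries and the 25873 genes with at least 10 counts, after a test on simulated data, with DESeq2 1.42.0 as an alternative; each SE was obtained from the log2 fold change and the square root of F. With 3 libraries per group an exact permutation test cannot go below p = 0.1, so single values were not tested that way. Named are the 4 most abundant genes of each type, called genes and, in 3 comparisons, the largest positive and negative fold change among genes of at least 1 CPM; others named for an extreme ratio, a zero, a pair or an overlap were chosen after their values were seen. Shared sequence was sought in windows of 150 bases. Replicates differed by more than sampling noise (chi-square per degree of freedom 9.23 to 33.7 in 12 pairs). Tables were made with Python 3.11.15, numpy 2.4.6 and pandas 2.3.3 and figures with matplotlib 3.10.9.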

Additional observations from a re-analysis of the deposited data

How the results depend on the processing

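The 6 medians, counts of calls and summed ratios were recomputed under each alternative: 271 values stayed within the replicate spread or 1.5 times the count and 29 did not. Leaving out 1 library at a time, the median log2 fold change ran from -0.0216 to 2.07 for control ECs against mono-culture, from -2.27 to -0.14 for senECs against control ECs, from -2.23 to -0.14 with EGCG-treated senECs relative to control ECs, from -0.39 to 0.0714 for senECs against mono-culture, from -0.31 to 0.11 for EGCG-treated senECs against mono-culture and from -0.14 to 0.14 for EGCG-treated senECs against senECs. In mono-culture, leaving out replicate 2 gave the 0.0714 and replicate 3 the -0.39 and -0.31. The log2 ratio of the summed CPM, 0.95, -1.05 and -0.94 in the first 3 of these, ran from -0.0442 to 1.298, from -1.40 to -0.0604 and from -1.296 to 0.0461, with 0 calls in every case. The upper ends of -0.14 and the ends of -0.0216, -0.0442, -0.0604 and 0.0461 are the values without control EC replicate 2. Without it the fold changes turned sign for HIST1H1B (range -3.14 to 0.0276), HIST1H4E (-3.26 to 1.41) and HIST2H3D (-3.03 to 0.15) in senECs against control ECs, for HIST1H4E (-1.13 to 3.55) in control ECs against mono-culture and for HIST1H3B (-7.40 to 0.82) with EGCG-treated senECs relative to control ECs. Without senEC replicate 5 that of HIST2H2AC in senECs against control ECs was -0.14 (up to 0.54).

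With all genes that had a count tested, edgeR called 10, 9 and 4 histone genes in the 3 comparisons with control ECs. These are control ECs against mono-culture, senECs against control ECs and EGCG-treated senECs against control ECs. The cause was not tested. DESeq2, run only on the genes with at least 10 counts, called 1 in the first. The share of all genes called is not given for this filter or for the replicate blocks below. Their counts of calls are therefore not read as a result about the histone genes. With at least 10 counts in every library, a filter that few histone genes passed, the medians were 0.17, -0.38 and -0.27. The cause of this change in the medians was not tested. With the replicate number as a block, edgeR called 7, 7 and 3 histone genes in these 3 comparisons and the median for senECs against mono-culture was -0.36. With numbers 3 and 5 joined in the replicate block the calls were 5, 2 and 2, and 1 for EGCG-treated senECs against mono-culture. The replicate numbers do not pair the libraries by the labels, and correlations of same-numbered libraries ran from 0.0319 to 0.470 over 14492 genes, although all 12 correlated best with their own number once 3 and 5 were joined. The joined replicate block without control EC replicate 2, chosen after seeing the data, gave 0 calls in each of those 3 comparisons, with medians of 0.21, -0.33 and -0.43, and 2 and 1 calls for senECs and EGCG-treated senECs against mono-culture. The summed ratios without genes that share a protein with a copy were not run because no protein table was given.

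Levels under the limit of a 0 (up to 0.191 CPM) cannot be ordered at this depth, which covers many H3 and H4 genes outside control EC replicate 2.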

Other observations

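POU2F2, the gene of a POU-family factor named for the octamer that most H2A and H2B promoters here contain, was chosen after its values were seen. It averaged 18.9 ± 1.41 CPM (SD, n = 3) in mono-culture, 63.9 ± 2.76 CPM with control ECs, 64.3 ± 9.18 CPM with senECs and, with EGCG-treated senECs, 70.9 ± 3.64 CPM, and all 9 co-culture libraries were above the 3 of mono-culture. Its edgeR log2 fold change against mono-culture was 1.76 ± 0.12, 1.77 ± 0.12 and 1.91 ± 0.12, with adjusted p of 1.16e-07, 1.08e-07 and 2.88e-08. The related POU2F1 averaged 81.5 ± 9.72, 90.0 ± 5.74, 68.9 ± 14.9 and 73.9 ± 3.76 CPM in the 4 groups, with adjusted p of 0.948, 0.531 and 0.824 against mono-culture. The 21 histone genes with an octamer summed to 25.1 ± 5.35 CPM in mono-culture, 24.0 ± 3.59 CPM with senECs and, with EGCG-treated senECs, 25.8 ± 1.03 CPM, and to 25.1 ± 4.75 CPM (n = 2) with control ECs when replicate 2 is left out. No relation between them was tested.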
